A study of Mus musculus with 2 samples.

Results

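Mitochondria carry their own ribosome, which translates the few messenger RNAs encoded in mitochondrial DNA. These mRNAs encode core subunits of the respiratory chain and of ATP synthase. All proteins of this ribosome are encoded in the nucleus, made in the cytosol and imported. Some descend from bacterial ribosomal proteins and others have no bacterial counterpart. In the assembled particle nearly every protein is present in a single copy, the stalk protein bL12m (Mrpl12) being the known exception. The genes described here are those whose symbol is Mrpl or Mrps followed by a number, protein-coding and not pseudogenes. The rule reads the name and the gene type and no measured value. GENCODE M21 holds 78 such genes and the gene tables hold 77 of them, among 43346 gene rows. Of the 77, 50 encode proteins of the large subunit and 26 of the small subunit in the structure of the human particle. Mrps30 and Mrps18a count as large subunit there, as mL65 and mL66. Mrps36 belongs to neither, since its product is now known as a subunit of the 2-oxoglutarate dehydrogenase complex. Mrpl33 has no row in the gene tables. Its coding transcript, of 478 nt, was listed under another gene at 54.03 TPM in replicate 2 and 72.61 TPM in replicate 1, and it enters no count below.

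The RNA came from liver of C57BL/6J embryos at day 14.5, pooled from littermates of mixed sex, with no treatment or mutation named in the labels. It was polyadenylated RNA over 200 nt, sequenced in paired ends with strand kept. There is 1 group of 2 libraries, biological replicates 2 and 1, so the data give levels and the spread between these libraries, and nothing in the labels says whether separate litters were used. Replicate 2 held 65640933 estimated counts on genes and replicate 1 held 102720920. The mean fragment was 302.7 nt in replicate 2 and 214.2 nt in replicate 1. Globin mRNAs took 57.5% of TPM in replicate 2 and 48.5% in replicate 1. Defining genes of hepatocytes (7 genes, median 865 and 1345 TPM) and of erythroid cells (7 genes, median 247 and 225 TPM) were high. So were those of granulocytes (4 genes, 224 and 275 TPM) and megakaryocytes (4 genes, 89.7 and 78.6 TPM). Medians were lower for macrophage (12.3 and 10.8 TPM), endothelial (7.13 and 7.79 TPM) and stellate cell genes (1.57 and 1.58 TPM). The 14 markers of neural, muscle, lung, gut and kidney tissue stayed at or below 2.13 TPM. Of these 14, 11 had enough counts for the test described below. It called 6 of them higher in replicate 2, beside 3.80% of all 17906 genes tested. The levels of these 6 were at most 0.17 TPM in either library, and their part in the results was not tested. In bulk tissue, fewer cells of a type and less RNA per cell cannot be told apart.

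Nuclear respiratory factor 1 (NRF1), YY1 and ETS factors such as GABP are known regulators of nuclear genes for mitochondrial proteins. RefSeq promoters (GRCm38.p6, 250 bases before to 50 after the start) were matched for 68 of the 77 genes. The 3 promoters printed here belong to the genes of highest mean TPM among the 8 whose window holds motifs of at least 2 of these 3 factors. Capitals mark the motifs on either strand, GCGCATGCG for NRF1, ATGGCGGC for YY1 and CCGGAAG for ETS factors, each written 5′ to 3′ along the strand of the gene.
Mrpl17: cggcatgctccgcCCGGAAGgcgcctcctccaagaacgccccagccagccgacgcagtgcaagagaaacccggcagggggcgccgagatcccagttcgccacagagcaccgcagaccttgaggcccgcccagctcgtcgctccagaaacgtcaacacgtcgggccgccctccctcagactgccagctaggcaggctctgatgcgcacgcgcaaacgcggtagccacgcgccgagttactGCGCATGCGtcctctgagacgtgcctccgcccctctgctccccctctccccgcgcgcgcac
Mrpl22: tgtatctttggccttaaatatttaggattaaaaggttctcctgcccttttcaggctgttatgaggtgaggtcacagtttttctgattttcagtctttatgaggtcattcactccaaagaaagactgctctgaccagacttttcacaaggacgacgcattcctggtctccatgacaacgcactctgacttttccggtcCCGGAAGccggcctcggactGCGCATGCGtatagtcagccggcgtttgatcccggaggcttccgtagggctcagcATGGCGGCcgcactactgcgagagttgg
Mrpl53: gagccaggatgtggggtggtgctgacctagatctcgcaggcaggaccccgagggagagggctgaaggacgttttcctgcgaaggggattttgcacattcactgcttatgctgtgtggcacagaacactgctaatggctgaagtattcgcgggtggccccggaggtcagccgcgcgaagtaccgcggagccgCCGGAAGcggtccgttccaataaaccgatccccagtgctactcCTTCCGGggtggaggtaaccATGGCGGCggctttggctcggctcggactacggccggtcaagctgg
The windows lie at chr7:105811038-105811337 (minus strand, Mrpl17), chr11:58171414-58171713 (plus strand, Mrpl22) and chr6:83108858-83109157 (plus strand, Mrpl53). Mrpl22 encodes a protein at the exit of the peptide tunnel and its window holds all 3 motifs. Mrpl17 encodes another tunnel-exit protein and its window holds an ETS and an NRF1 motif. Mrpl53 encodes a mitochondria-specific protein of the large subunit and its window holds a YY1 motif and a pair of ETS motifs. No 2 of the marked motifs overlap. The ATGGCGGC of Mrpl22 and of Mrpl53 lies downstream of the start position of the transcript.

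Of the 68 promoters, 25 (36.8%) held the ETS motif, 12 (17.6%) the YY1 motif and 7 (10.3%) the NRF1 motif. Over all 16317 protein-coding genes with a promoter in the table the shares were 13.5%, 3.64% and 2.76%. Over the 8668 of these whose mean reached 1 TPM they were 21.6%, 6.15% and 4.40%. At least 1 of the 3 motifs stood in 35 of the 68 promoters (51.5%), against 18.2% over all promoters. That share was not counted for the expressed genes, in which each of the 3 motifs was more frequent than over all promoters. Of the other motifs searched, each but the CRE motif was less frequent in the members' promoters than in all promoters. The SP1 motif GGGCGG was in 34 of the members' 68 promoters, against 51.4% of all promoters and 69.5% of those of the 8668 expressed genes. CCAAT was in 38.2% of members' promoters, against 42.0% of all and 43.3% of expressed, and the E-box CACGTG in 7.35%, against 9.24% of all and 1043 of the 8668 expressed. TATAAA was in 7.35%, against 14.1% and 8.42%, and the CRE motif TGACGTCA in 2.94%, against 2.66% and 3.58%. Genes with the ETS motif had a median of 44.8 TPM and those without it 25.2 TPM. For the NRF1 motif these medians were 28.9 and 32.7 TPM, and for YY1 30.5 and 32.2 TPM. A match is a description of letters and no binding was measured. The factors themselves were expressed, with Nrf1 at 35.06 TPM in replicate 2 and 31.1 TPM in replicate 1, and Yy1 at 12.2 and 17.57 TPM. The genes of the GABP subunits were lower, with Gabpa at 7.05 and 10.81 TPM and Gabpb1 at 8.17 and 8.75 TPM.

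A gene arrangement was more frequent among the members than among other genes. The start of 33 of the 77 (42.9%) lay within 1000 bases of the start of a protein-coding gene on the other strand, against 17.4% of the 10899 protein-coding genes whose mean reached 1 TPM and 10.9% of all 21951 protein-coding genes of GENCODE M21. Mrps11 and Mrpl46, of the small and the large subunit, form such a pair with each other on chromosome 7. Mrps11 stood at 38.8 TPM in replicate 2 and 41.44 TPM in replicate 1, and Mrpl46 at 16.53 and 21.98 TPM. Some other neighbours are also known for roles in mitochondria or ribosomes. Mrpl36 starts opposite Ndufs6 and Mrpl47 opposite Ndufb5, both of respiratory complex I, Mrps12 opposite the mitochondrial seryl-tRNA synthetase gene Sars2, Mrpl43 opposite the mitochondrial DNA helicase gene Twnk, and Mrpl49 opposite Fau, which encodes a cytosolic ribosomal protein. These neighbours were picked after their names were seen. Of the 33 neighbours, 30 reached a mean of 1 TPM, with a median of 10.8 TPM. Members with such a neighbour had a median of 33.1 TPM and the others 29.4 TPM.

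All 77 genes were expressed. Every member exceeded 1 TPM (transcript number scaled to a fixed total per library) in both libraries, and 66 of 77 exceeded 10 TPM in both. The median over the members was 24.6 TPM in replicate 2 and 34.8 TPM in replicate 1, a mean of 29.7 ± 7.23 TPM (SD, n = 2). This median lay above 79.8% of protein-coding genes whose mean reached 1 TPM in replicate 2 and above 83.1% in replicate 1. Together the members made up 0.241% of TPM in replicate 2 and 0.308% in replicate 1. With globin, spike-in and mitochondrial transcripts left out of the total, the median was 63.8 TPM in replicate 2 and 76.6 TPM in replicate 1. The levels of the members spread 33.7-fold in replicate 2 and 26.9-fold in replicate 1. The order of the genes was shared by the libraries with a Spearman rho of 0.85 over the 77 genes, a description over genes that share both libraries and their annotation.

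**Figure D1:**
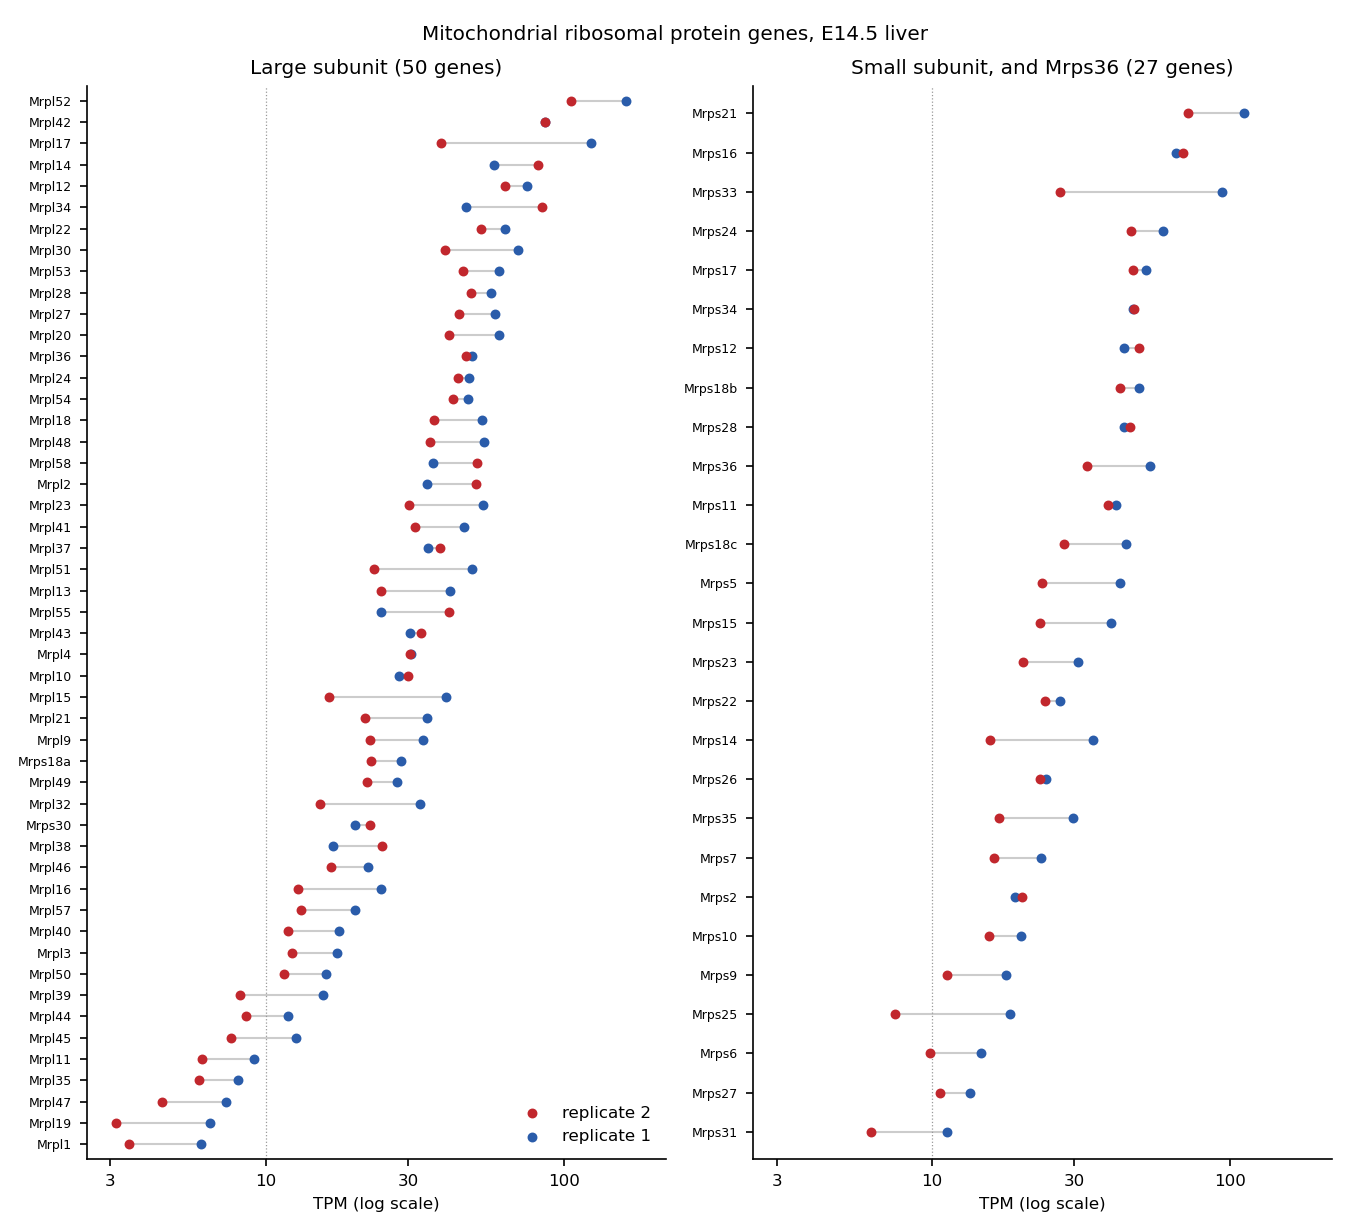
Level of each of the 77 genes in replicate 2 (red) and replicate 1 (blue), in TPM on a log scale, ordered by mean within the large subunit (left) and the small subunit with Mrps36 (right). The dotted line marks 10 TPM. Most genes lie between 10 and 100 TPM, Mrpl52 is the highest, Mrpl1 and Mrpl19 are the lowest, and blue lies right of red in 61 of 77 genes. TPM was also higher in replicate 1 in 7905 of 10899 protein-coding genes whose mean reached 1 TPM.

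In the large subunit the highest gene by TPM was Mrpl52, which encodes the mitochondria-specific protein mL52, at 105.36 TPM in replicate 2 and 162.32 TPM in replicate 1. It was the sole member above 100 TPM in both libraries. Mrpl42 (mL42) followed with 86.69 and 86.23 TPM, the closest pair of values among the 8 highest genes of this subunit. Mrpl14 (uL14m), a protein of the face that joins the small subunit, had 81.69 and 58.35 TPM. Mrpl34 (bL34m) had 84.77 and 46.79 TPM. Of these 4 genes, Mrpl42, Mrpl14 and Mrpl34 had the higher value in replicate 2. Mrpl17 (bL17m) had 38.54 TPM in replicate 2 and 122.91 TPM in replicate 1, a 3.19-fold gap. Mrpl22 (uL22m) had 52.73 and 63.32 TPM, and Mrpl30 (uL30m) had 39.93 and 70.08 TPM. The order differed in RPKM on the mm9 annotation (reads scaled to transcript length and library size), where Mrpl52 ranked 45 among the members. There Mrpl17 ranked 3, Mrpl14 5 and Mrpl22 64.

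The 6 lowest genes of the large subunit were at 12.59 TPM or less in both libraries. Mrpl1 (uL1m), the protein of the L1 stalk beside the exit site for transfer RNA, had 3.47 TPM in replicate 2 and 6.04 TPM in replicate 1. Mrpl19 (bL19m) had 3.13 and 6.49 TPM. Mrpl47 (uL29m) had 4.47 and 7.34 TPM, Mrpl35 (bL35m) had 5.96 and 8.06 TPM, and Mrpl45 (mL45), the membrane anchor of the ribosome at the tunnel exit, had 7.64 and 12.59 TPM. These 5 and Mrpl11 were lower in replicate 2 than in replicate 1.

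In the small subunit Mrps21 (bS21m) was highest, at 72.11 TPM in replicate 2 and 111.54 TPM in replicate 1. Mrps16 (bS16m), a gene mutated in a human respiratory chain deficiency, had 69.45 and 66.09 TPM. Mrps33 (mS33) had 26.79 and 93.65 TPM, the widest relative gap among the members. By mm9 RPKM Mrps21 ranked 7, Mrps16 11 and Mrps33 54 among the members. Further genes of this subunit stood close together, with Mrps24 (uS3m) at 46.49 and 59.36 TPM, Mrps17 (uS17m) at 47.35 and 52.16 TPM, Mrps34 (mS34) at 47.47 and 47.34 TPM, and Mrps18b (mS40) at 42.65 and 49.46 TPM. The means of these 4 genes lay between 46.1 and 52.9 TPM. At the low end Mrps31 (mS31) had 6.25 and 11.23 TPM, Mrps27 (mS27) 10.63 and 13.41 TPM, Mrps6 (bS6m) 9.83 and 14.57 TPM, Mrps25 (mS25) 7.5 and 18.18 TPM, Mrps9 (uS9m) 11.19 and 17.62 TPM, and Mrps10 (uS10m) 15.5 and 19.84 TPM.

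Neither subunit was the higher one in both libraries. The median was 30.1 TPM for large and 23.2 TPM for small subunit genes in replicate 2, and 34.7 and 37.2 TPM in replicate 1. The difference of median log2 TPM, large minus small, was 0.38 in replicate 2 and -0.09 in replicate 1 (mean 0.14 ± 0.33, SD, n = 2), so its sign was not the same in both. Members were also classed by the unified names of their proteins, u and b names as bacterial-type and m names as mitochondria-specific. By this rule Mrps18a (mL66) and Mrps18b (mS40) count as mitochondria-specific, though they are paralogs of a bacterial protein. The 45 bacterial-type genes had a median of 30.1 TPM in replicate 2 and 41.3 TPM in replicate 1. The 31 mitochondria-specific genes had 23.0 and 28.5 TPM. On the log2 scale this difference was 0.39 in replicate 2 and 0.54 in replicate 1 (mean 0.46 ± 0.11, SD, n = 2). It was 0.18 when means of log2 values took the place of medians. These differences are descriptions with no test, since an exact two-sided sign test over 2 libraries cannot go below 0.5.

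Functional sites of the ribosome held genes of unlike level. Among the 3 stalk genes, which recruit translation factors, Mrpl12 had 63.43 TPM in replicate 2 and 75.06 TPM in replicate 1, Mrpl10 (uL10m) had 29.99 and 27.9 TPM, and Mrpl11 (uL11m) had 6.09 and 9.09 TPM. Mrpl12, whose protein is the multi-copy one, had the highest RNA level of the 3 in both libraries. The 8 genes of the tunnel exit ran from 4.47 TPM (Mrpl47) to 52.7 TPM (Mrpl22) in replicate 2 and from 7.34 to 123 TPM in replicate 1. All 8 were lower in replicate 2, as were 61 of the 77 members and 7905 of 10899 protein-coding genes whose mean reached 1 TPM. The 8 genes of the central protuberance had a median of 36.1 TPM in replicate 2 and 30.3 TPM in replicate 1. Even so, 5 of the 8 had the lower TPM in replicate 2 and 3 the higher. Their median log2 ratio, replicate 2 over replicate 1, was -0.41 in TPM and -0.32 in TMM-scaled counts. Mrpl58 (mL62), of the same site, is known as a peptidyl-tRNA hydrolase built into the ribosome, and had 50.94 and 36.27 TPM. Its log2 count ratio was -0.20. Mrps12 (uS12m), the protein of the decoding site, had 49.55 and 44.2 TPM.

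Mrps18a, Mrps18b and Mrps18c are paralogs of the bacterial protein S18 that hold different places in the particle. Mrps18b stood highest, as given above. Mrps18c (bS18m), which takes the bacterial place in the small subunit, had 27.79 TPM in replicate 2 and 44.75 TPM in replicate 1. Mrps18a (mL66), in the large subunit, had 22.54 and 28.48 TPM. The 12 members counted here as human disease genes had a median of 20.1 TPM in replicate 2 and 28.8 TPM in replicate 1. Among them Mrps22 (mS22) had 23.98 and 26.77 TPM, Mrpl3 (uL3m) 12.18 and 17.3 TPM, and Mrpl44 (mL44) 8.59 and 11.89 TPM. Mrps36 had 33.21 and 53.86 TPM.

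TPM of the members was related to transcript length, with a Spearman rho of -0.78 between mean TPM and the deposited length over the 77 genes, against -0.40 over 10899 protein-coding genes. On the mm9 annotation the authors deposited RPKM (reads scaled to transcript length and library size). Between that RPKM and the same deposited mm10 length, not a length on mm9, the rho was -0.34. The mm9 RPKM and the mean TPM of the members were related with a rho of 0.70. These are descriptions over genes, and length enters both units as a divisor.

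**Figure D2:**
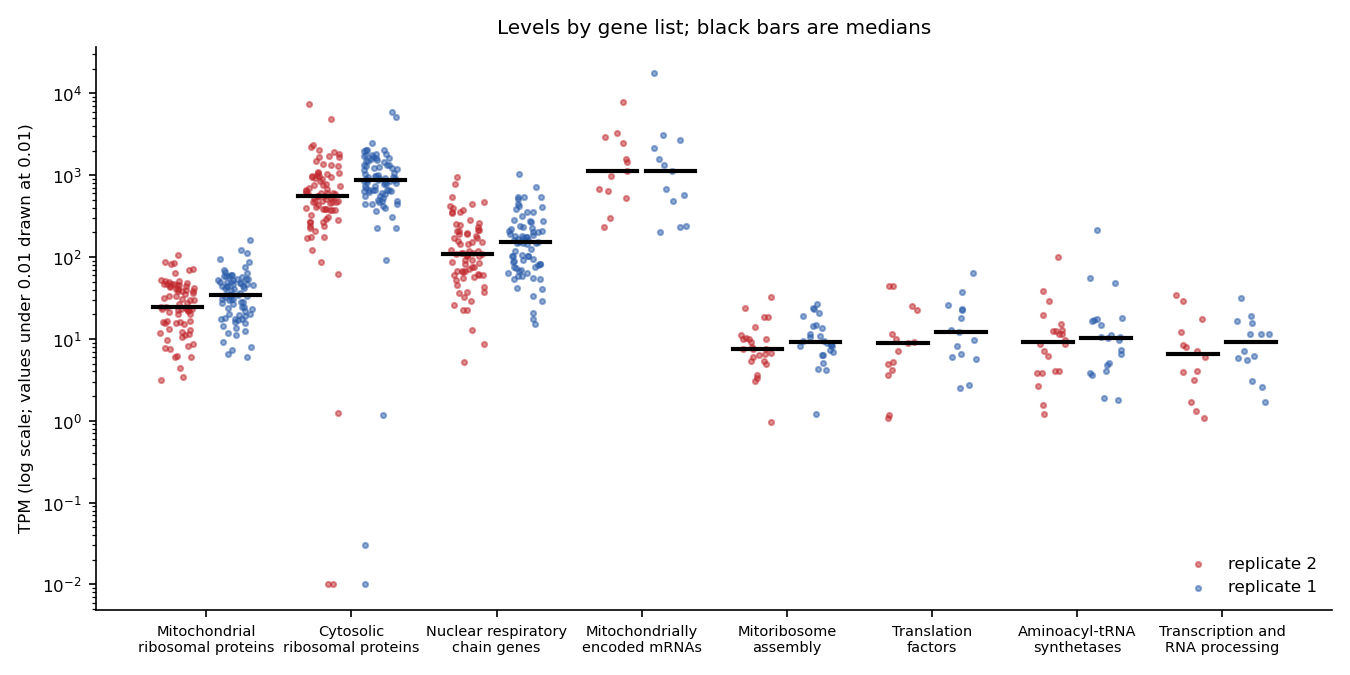
TPM of single genes on a log scale by gene list, replicate 2 (red) left of replicate 1 (blue), with medians as black bars. The mitochondrial ribosomal protein genes have medians of 24.6 and 34.8 TPM, below cytosolic ribosomal protein and respiratory chain genes and above the lists for assembly, translation factors, synthetases, and transcription and RNA processing.

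The members stood between the abundant and the scarce parts of mitochondrial gene expression. The 75 nuclear genes of the respiratory chain and ATP synthase had a median of 110.0 TPM in replicate 2 and 154 TPM in replicate 1. The difference of median log2 TPM, members minus respiratory chain, was -2.16 in replicate 2 and -2.14 in replicate 1, so that the respiratory chain median was 4.47 and 4.42 times that of the members. The 83 cytosolic ribosomal protein genes had medians of 557 and 867 TPM, which is 22.7 and 24.9 times the member median, with the caution that they share reads with many pseudogenes. On the mm9 RPKM scale these differences of medians shrank to -1.55 against the respiratory chain and -2.02 against cytosolic ribosomal proteins. The genes of 5 further proteins of the mitochondrial ribosome, which have other names, had a median of 26.2 TPM in replicate 2 and 52.8 TPM in replicate 1. They were led by Aurkaip1 at 66.76 and 73.87 TPM, followed by Chchd1 (46.76 and 53.73), Dap3 (26.24 and 52.79), Gadd45gip1 (24.15 and 29.7) and Ptcd3 (10.97 and 18.19 TPM).

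Genes that build or serve the ribosome were lower. The 26 assembly factor genes had a median of 7.55 TPM in replicate 2 and 9.10 TPM in replicate 1, with the rRNA methyltransferase gene Mrm1 at 32.14 and 18.87 TPM as the highest by the mean and Ybey at 0.96 and 1.22 TPM as the lowest. Mpv17l2 (23.85 and 23.56 TPM), Rbfa (18.45 and 27.08 TPM) and Malsu1 (18.63 and 23.42 TPM) followed by the mean, and each exceeded Mrm1 in replicate 1. The 15 translation factor genes had a median of 8.95 and 12.1 TPM, led by the mean by the elongation factor gene Tufm at 43.72 and 63.69 TPM, with Slirp (44.61 and 37.84 TPM) above it in replicate 2. Mtrf1 (1.19 and 2.5 TPM) and Mtrf1l (1.09 and 2.75 TPM) were the lowest. The 22 genes of the synthetase list had a median of 9.26 and 10.4 TPM. Lars2, at 100.65 and 213.23 TPM, was the one gene far above the others. That list also holds Gatb, Gatc and Qrsl1, which encode amidotransferase subunits. The 13 mitochondrial mRNAs had a median of 1117 and 1142 TPM. Among them mt-Atp8, at 7946.13 and 17956.97 TPM, was called lower in replicate 2 (log2 count ratio -2.06), and at 204 nt it is shorter than the mean fragment of either library, which makes its estimate uncertain. The rRNAs of the mitochondrial ribosome, mt-Rnr1 and mt-Rnr2, were measured in libraries of polyadenylated RNA. There mt-Rnr1 had 95.79 TPM in replicate 2 and 145.72 TPM in replicate 1, and mt-Rnr2 had 103.47 and 157.68 TPM.

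Between the libraries the members mostly had lower TMM-scaled counts in replicate 2, a direction that turned when the libraries were scaled by spike-in RNA. Scaled for depth by TMM, 59 of 77 had a lower count in replicate 2 and 18 a higher one, with a median log2 ratio of -0.30, beside 0.00 over all 17906 genes tested. With spike-in scaling the median was 0.32 for the members and 0.62 for all genes tested. A change of scaling shifts the log2 ratios of all genes by the same amount. The members therefore lay 0.30 below all genes either way by construction. In TPM the median log2 ratio was -0.47 for the members and -0.22 for all genes tested. By the exact binomial test, 3 members were called lower in replicate 2 and 0 higher, at an adjusted p under 0.05 and 2-fold. Over all genes tested, 4.53% were called lower and 3.80% higher, and among the 10899 protein-coding genes whose mean reached 1 TPM, as it did in every member, 1.53% were called lower and 0.303% higher. The 3 of 77 members called lower are thus close to the share over all genes and above that over expressed protein-coding genes, a difference that was not tested. With spike-in scaling 0 members were called lower and 4 higher, beside 25 lower and 1443 higher of the 10899 expressed protein-coding genes. Over all 17906 genes tested, 296 were called lower and 3283 higher under that scaling. This test weighs counting error alone. With an edgeR exact test that takes the 2 libraries as replicates and uses their common dispersion, a coefficient of variation of 24.9%, 0 members were called in either direction, beside 0.620% of all genes lower and 0.765% higher. Under it 3 members had an unadjusted p under 0.05, and the lowest adjusted p among members was 0.559. The dispersion was estimated from the same 2 libraries that were compared, so the difference under test is part of it. That leaves little room for calls near 2-fold, and 0 called members do not show that the libraries were alike.

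**Figure D3:**
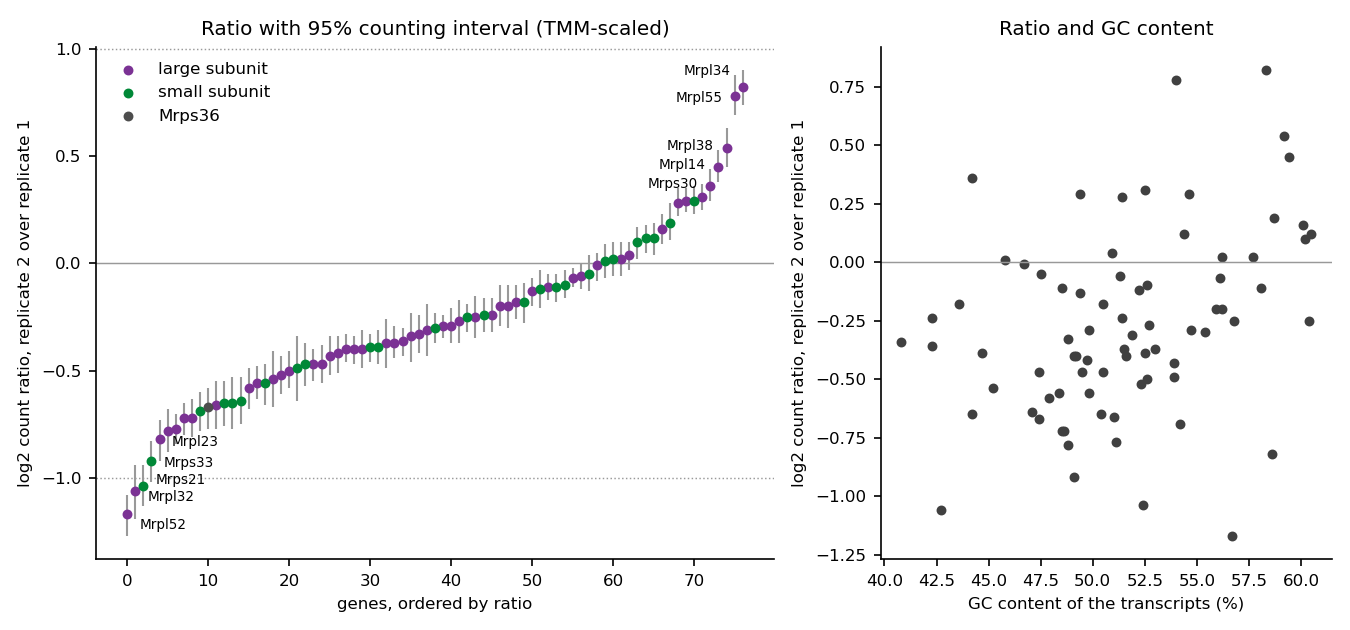
Left, log2 ratio of TMM-scaled counts, replicate 2 over replicate 1, for the 77 genes in rising order, with 95% counting intervals as grey lines and 2-fold as dotted lines. Right, the same ratio against the GC content of the transcripts. The 3 genes beyond 2-fold are Mrpl52, Mrpl32 and Mrps21, all lower in replicate 2, and the ratios of most genes are below 0, whereas with spike-in scaling the median is 0.32.

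The 3 called genes differed in length and GC content. Mrpl52 (chr14:54426909-54429756, GRCm38, plus strand) had 1153 counts in replicate 2, against 4075 in replicate 1, which gave a log2 ratio of -1.17 (95% counting interval -1.27 to -1.08, adjusted p = 5.6e-148 by the exact binomial test). Its transcript is 412 nt long, with a GC content of 56.7%. Mrps21 (chr3:95862634-95871519, minus strand) had 1176 and 3779 counts, a log2 ratio of -1.04, with a mean length of 474 nt and a GC content of 52.4%. Mrpl32 (bL32m, chr13:14608184-14613165, minus strand) had 702 and 2297 counts, a log2 ratio of -1.06, with a length of 768 nt and a GC content of 42.7%. Mrpl1 (40.8%, log2 ratio -0.34) and Mrpl50 (42.3%, -0.24), also of low GC content, were lower in replicate 2 by less than 2-fold. The part of GC content in the calls was not tested. Under the edgeR exact test with the common dispersion, Mrpl52, Mrpl32 and Mrps21 had adjusted p-values of 0.559, 0.767 and 0.792. In TPM, which divides by the effective length, Mrpl52 was 1.54-fold and Mrps21 1.55-fold lower in replicate 2, and Mrpl32 2.15-fold lower.

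Mrps33 and Mrpl23 followed with log2 count ratios of -0.92 and -0.82. Mrpl23 (uL23m) shares sequence with the pseudogene Mrpl23-ps1 on chromosome 2. Mrpl23 had 1163 counts in replicate 2 and 3225 in replicate 1, while the pseudogene had 1386 and 716. Their sum, 2549 and 3941, had a log2 ratio of 0.02, so the difference listed for Mrpl23 was not seen in the pair together. The largest ratios the other way were those of Mrpl34 at 0.82 (2877 and 2551 counts), Mrpl55 (bL31m) at 0.78 (2009 and 1829), Mrpl38 at 0.54, Mrpl14 at 0.45 and Mrps30 at 0.36.

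GC content moved with these ratios, the mean fragment length differed between the libraries, and their part in the differences was not tested. Over the 77 genes the log2 count ratio and GC content had a Spearman rho of 0.36, and over 10898 protein-coding genes 0.59. The 25 members of lowest GC content (40.8% to 49.2%) had a median log2 ratio of -0.40, with 23 of 25 lower in replicate 2. The 25 of highest GC content (53.9% to 60.5%) had a median of -0.07, with 13 of 25 lower. The 3572 protein-coding genes within the middle range of the members' GC content, 48.6% to 54.6%, had a median of 0.04. The 14 members under 700 nt had a median log2 ratio of -0.51 and the 63 longer ones -0.29, while over all 77 the ratio and the length had a Spearman rho of 0.11, and over protein-coding genes 0.08. Cytosolic ribosomal protein genes, whose median length was 738 nt, had a median log2 ratio of -0.60 with 20 called lower and 0 higher, and the respiratory chain genes, at 746 nt, -0.28 with 8 called lower and 0 higher. These calls come from the exact binomial test on TMM-scaled counts, of 81 and 75 genes tested, beside 4.53% lower over all genes tested and 1.53% over expressed protein-coding genes. With spike-in scaling the calls were 5 lower and 1 higher among cytosolic ribosomal protein genes and 0 lower and 3 higher among respiratory chain genes. Under that scaling 25 of 10899 expressed protein-coding genes were called lower and 1443 higher. The members' median length was 1051 nt. The called respiratory chain genes were Ndufa5, Atp5k, Atp5e, Ndufa1, Cox7c, Ndufb3, Uqcr11 and Ndufa6. Of the translation factors 1 of 15 was called lower, the RNA-binding protein gene Slirp at -1.19, and of the assembly factors, synthetases and RNA processing factors 0 were called.

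Where transcript shares differed between the libraries, TPM and count ratios of a gene could differ as well. The members had 275 transcript models in all, and 19 genes had 1. A single transcript held at least 80% of the gene in both libraries in 48 members. In 11 members the main transcript, the one of highest mean share, held less than 50% in a library. These were Mrpl15, Mrpl17, Mrpl24, Mrpl30, Mrpl48, Mrpl51, Mrpl55, Mrpl58, Mrps10, Mrps11 and Mrps33. In all, 16 transcripts of 12 members differed by at least 20 percentage points between the libraries, and 9 of the 16 were shorter than 600 nt.

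**Figure D4:**
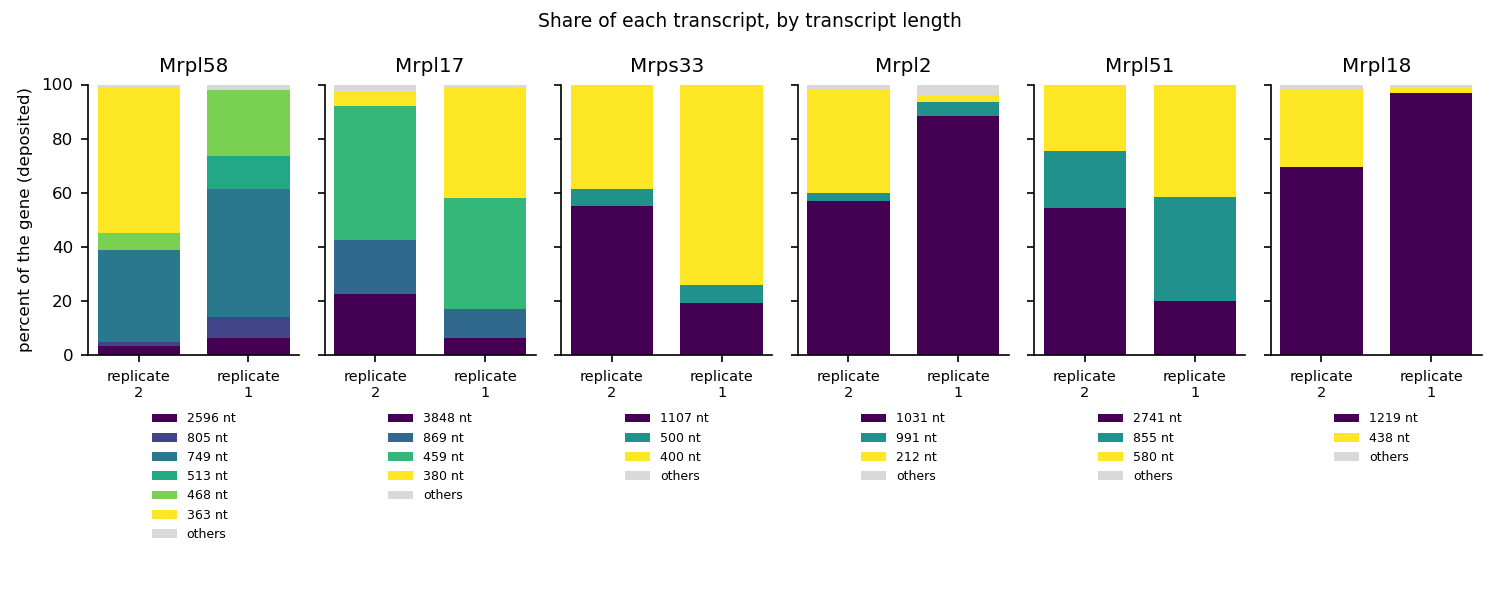
Share of each gene assigned to its transcripts in replicate 2 (left bar) and replicate 1 (right bar) for 6 genes, in percent as deposited, coloured by transcript length, with transcripts under 3% in both libraries in grey. The shortest transcript drawn in colour takes more in replicate 2 in Mrpl58, Mrpl2 and Mrpl18, and more in replicate 1 in Mrpl17, Mrps33 and Mrpl51.

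In Mrpl58 a transcript of 363 nt, annotated as a target of nonsense-mediated decay, held 54.02% in replicate 2 and 0.29% in replicate 1. Its effective length, the number of positions at which a fragment can start, was 63.82 nt in replicate 2 and 149.88 nt in replicate 1. In Mrpl17 a coding transcript of 380 nt held 4.82% in replicate 2 and 41.06% in replicate 1. The counts of the whole gene, 3893 and 7483, gave a log2 ratio of only -0.29, while its TPM was 3.19-fold lower in replicate 2. Mrps33 had a retained-intron transcript of 400 nt at 38.76% and 74.13%, and its TPM was 3.49-fold lower in replicate 2 against 1.90-fold by scaled counts. In Mrpl2 (uL2m) a noncoding transcript of 212 nt, shorter than the mean fragment of either library, held 38.25% in replicate 2 and 2.64% in replicate 1, with effective lengths of 6.4 and 15.32 nt. In Mrpl18 (uL18m) a noncoding transcript of 438 nt held 28.99% and 1.82%. In Mrpl51 (mL51) the longest transcript, of 2741 nt, held 54.37% and 20.19%. The TPM of these 6 genes are less certain than those of genes with 1 transcript model.

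For most members nearly all of the level was assigned to transcripts annotated as coding, with a median share of 97.6% in replicate 2 and 96.8% in replicate 1. In 15 members it was below 80% in both libraries. Mrps26 (mS26) had 90.95% and 90.54% on a transcript annotated as retaining an intron, and Mrpl32 had its single model in the tables annotated as a target of nonsense-mediated decay. In Mrpl3 such a decay transcript held 67.59% and 66.32%, and in Mrps5 (uS5m) a retained-intron transcript held 54.37% and 58.78%. These transcript types are those of GENCODE M21, matched by identifier, and the shares of Mrps26, Mrpl3 and Mrps5 differed between the libraries by less than 5 points.

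Splice junctions gave a second view, on the mm9 assembly and pooled over both replicates. Junctions within the members carried 349635 reads at annotated introns and 13333 elsewhere, so that 3.67% (Wilson 95% interval 3.61 to 3.74) were unannotated. Over all junctions of the table the share was 18.3%. That set was not limited to junctions within a gene on its strand, so these shares are not like for like. In 25 of 77 members the unannotated share was under 1%, and the median over members was 1.56%. The 5 genes with most such reads, Mrpl42, Mrpl24, Mrpl28, Mrpl2 and Mrpl30, held 57.8% of the unannotated reads.

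**Figure D5:**
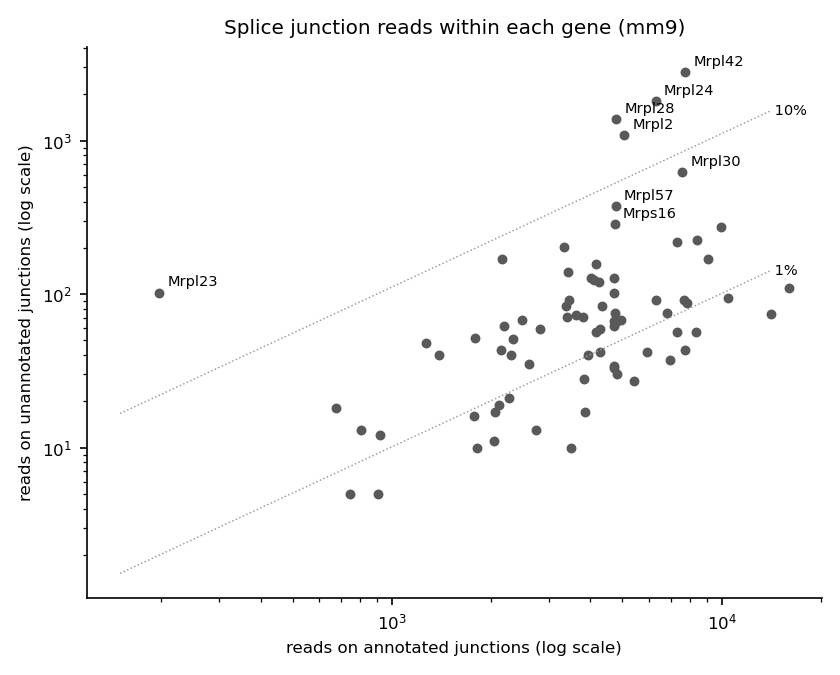
Reads on annotated (x) and unannotated (y) splice junctions within each of the 77 genes, both on log scales, from the mm9 table. Dotted lines mark unannotated shares of 1% and 10%. Mrpl42, Mrpl24, Mrpl28 and Mrpl2 lie above the upper line, as does Mrpl23, which has few annotated reads.

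In each of these 5 genes a single junction carried most of these reads. Mrpl42 had 2644 reads on an intron of 1383 nt (chr10:94963157-94964539, mm9, minus strand), 68.7% of the reads on its strongest annotated junction. In Mrpl24 (uL24m) 1734 reads fell on an intron of 443 nt, in Mrpl28 (bL28m) 1343 on one of 548 nt, in Mrpl2 995 on one of 93 nt, and in Mrpl30 562 on one of 3354 nt. These were 79.9%, 73.1%, 84.5% and 27.2% of the strongest annotated junction of the gene. All 5 had an irreproducible discovery rate of 0.0 as deposited. The newer GENCODE M21 models of the same 5 genes hold an intron of exactly the same length, and 8 of the 13 unannotated junctions with at least 100 reads in members did so. No coordinates were converted, so a match of length is not a match of position. Mrpl23 had only 197 annotated and 102 unannotated junction reads, and its mm9 RPKM was 1.21, while its mean TPM was 41.8.

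Reads of most members could be assigned to 1 gene. The expected (estimated) counts of 64 of 77 were whole numbers in both libraries (within 0.005), as when no read is divided with another gene. The 13 others were Mrpl23, Mrpl27, Mrpl42, Mrpl48, Mrpl51, Mrpl53, Mrps5, Mrps6, Mrps18b, Mrps24, Mrps33, Mrps34 and Mrps36, and their values are less certain. The 3 members Mrpl23, Mrpl48 and Mrps36 have pseudogenes named after them. Those of Mrpl48 and Mrps36 reached at most 0.41 TPM in a library, while Mrpl23-ps1 was listed at 50.37 TPM in replicate 2 and 15.46 TPM in replicate 1.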

How the data were processed

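The authors deposited, per the file headers, a gene and a transcript table for each library, with an expected count (an estimate that need not be whole), TPM, FPKM, lengths, effective lengths and 95% bounds of TPM. Per the file headers the transcript tables also give the percent of a gene assigned to each transcript. A deposited note names mm10 and annotation M4; the quantifier is not given in the sources used here. The second deposited set, on mm9, holds RPKM of annotated genes and read counts of splice junctions with an irreproducible discovery rate, and does not say which replicate is which library, so means or sums over both were used. FPKM served only as an alternative unit.

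Gene identifiers, stripped of their version, were looked up in GENCODE M21 (GRCm38) for symbols, transcript types and GC content. Members are defined by gene name; this set, the gene lists and the naming rule were chosen with earlier results of these data known. The rule takes the 8 highest and 6 lowest members of each subunit by mean TPM, called members, the 5 largest ratios each way, members whose main transcript holds less than 50%, the 5 with most unannotated junction reads, and members of named roles; of other lists the leading members and called ones, where called cytosolic ribosomal protein genes are given as a count only. Members named for their transcript types or shifts, unlike these, were chosen after their values were seen.

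Expected counts were rounded to whole numbers, and rows that name no gene (1.91% of counts in replicate 2, 2.92% in replicate 1) were left out. With 1 group there are no conditions to compare, so edgeR's quasi-likelihood test does not apply. Each gene with at least 10 counts in all was compared between the libraries with an exact binomial test (two-sided, conditional on the sum) on library sizes scaled by TMM, with Benjamini-Hochberg adjustment across all 17906 such genes, and a call at an adjusted p under 0.05 and 2-fold, with 0.5 added to each count in ratios. Such p-values concern these libraries alone, and intervals cover counting error only, since reads carry no molecular identifiers. The procedure was tested on simulated data. Differences of medians add 0.01 to TPM. Junctions were counted where they lie within a member on its strand. Protein sequences were not used here. Software was edgeR 4.0.16 and DESeq2 1.42.0 under R 4.3.3, and Python 3.11.15 with pandas 2.3.3, numpy 2.4.6, scipy 1.17.1 and matplotlib 3.10.9.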

Additional observations from a re-analysis of the deposited data

How the results depend on the processing

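Across 65 alternatives to 11 results, 47 stayed within a set limit. The limit was the SD between the libraries for levels and differences, and 1.5 times for counts. For the median ratio it was 0.1, and for junction reads the Wilson interval. Leaving out 1 library always keeps a level or difference within that SD, so those alternatives could not fail. Large minus small subunit counted as within it though its sign changed. The choice of scaling decided the direction of the comparison between libraries. With spike-in counts as library sizes the median log2 ratio of all genes tested was 0.62, and that of the members 0.32. Under it 4 members were called higher (Mrpl14, Mrpl34, Mrpl38 and Mrpl55) and 0 lower, beside 3283 higher and 296 lower of all 17906 genes tested. Relative to all genes the members were at -0.30 under each scaling, a value that a change of scaling cannot alter. On TPM the median ratio was -0.47. At 1.5-fold 2 members were called higher and 15 lower, with no fold minimum 14 and 56, and by the edgeR exact test 0 lower. The median TPM of the members was 70.2 without globin, spike-in and mitochondrial transcripts, and 24.6 and 34.8 in single libraries. The 2 alternatives chosen after seeing the data, coding transcripts only (24.7 TPM) and members with whole-number counts only (26.9 TPM), stayed within the spread. Against cytosolic ribosomal protein genes the log2 difference was -2.02 on mm9 RPKM and -4.22 with means; against respiratory chain genes it was -1.55 on mm9 RPKM, -2.13 with means and -2.12 with 1 TPM added. Bacterial-type minus mitochondria-specific was 0.18 with means. Large minus small subunit was 0.38 and -0.09 in single libraries. Junction reads off annotated introns were 2.99% at a discovery rate of 0.1 or less and 2.97% with at least 10 reads per junction. No paired analysis was possible because there is 1 group. With 2 libraries, levels of members under 600 nt and of members with shifting transcripts are less certain than the others. The planned summary of protein features was not run.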

Other observations

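The known regulators of nuclear genes for mitochondrial proteins were present at unlike levels. Myc had 46.28 TPM in replicate 2 and 34.47 TPM in replicate 1, and the coactivator gene Pprc1 had 19.82 and 17.44 TPM. Ppargc1b, the coactivator gene known from brown fat and muscle, had 0.25 and 0.41 TPM, the lowest of the 9 genes on that list. None of the 9 was called between the libraries by the exact binomial test; the median of the list was 8.17 TPM in replicate 2 and 10.8 TPM in replicate 1.

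Among genes for mitochondrial proteases and quality control Clpp was highest, at 53.62 TPM in replicate 2, against 47.85 TPM in replicate 1, ahead of Lonp1 with 37.51 and 43.62 TPM. Its partner gene Clpx was the lowest of the 7, at 5.53 and 9.88 TPM. Of the 14 genes for mitochondrial transcription and RNA processing, whose median was 6.59 and 9.24 TPM, Hsd17b10 was highest at 34.48 and 32.0 TPM, followed by Pnpt1 at 28.74 and 18.8 TPM.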
